A study of Mus musculus with 2 samples.

Results

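The histone cluster genes are the genes whose mouse symbols run from Hist1h to Hist4h. They were taken as every such symbol with at least 10 UMIs (unique molecular identifiers, 1 for each counted RNA molecule) over the barcodes with at least 1000 genes and at most 15% mitochondrial UMIs. This gave 36 genes of the 67 such symbols in the feature list, which holds 32285 features in all. Of the other 31 symbols, 23 had 0 UMIs and 8 had between 1 and 9. Just outside the limit stood Hist2h3b with 8 UMIs and Hist1h2bk and Hist1h4f with 7 each, and just inside it Hist2h3c2 with 13 and Hist1h2ag with 17.

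The cells were B16F10 melanoma, a mouse tumour line, recovered as GFP+, CD45- and DAPI- cells from metastases. The 3 sources were lungs of wild-type hosts (WT lung), lungs of perforin-deficient hosts (Prf1-/- lung) and knees of perforin-deficient hosts (Prf1-/- bone); perforin forms pores through which cytotoxic lymphocytes kill target cells, and the tumour line was the same in every host. Lungs were digested for 20 min and knees for 30 min at 37 °C, so site and digestion cannot be told apart. Each source carried 1 hashtag antibody in 1 pooled run of a droplet 3' library of polyadenylated RNA, and the number of mice per source was not given in the sources used here.

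With 1 hashtag group per condition there was no replicate, so no test was made. Levels are UMIs per 1000000 UMIs of the group (CPM), and each interval is an exact 95% interval for counting error only. A gene is called higher or lower where the ratio of 2 levels is at least 1.5-fold and its interval leaves out 1.

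Nucleosomes wrap DNA around an octamer of the core histones H2A, H2B, H3 and H4, and the linker histone H1 binds where DNA enters and leaves. Most of the genes for them stand in clusters, have no introns, and are transcribed mainly in S phase, when new chromatin is assembled. Their main mRNAs end in a stem-loop bound by Slbp instead of a poly(A) tail. Some cluster genes are also known to give polyadenylated transcripts, some of them outside S phase. In a library primed on poly(A), the counts are those of such RNA or of RNA primed at an internal A-rich stretch, not of the whole histone mRNA pool.

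Upstream windows of 6 members are shown because they are read again beside the cell-cycle results. The members are an H1 pair, an H2A pair, and the H3 and H4 genes with most UMIs. The levels within each pair differed in cells with transcripts of the cell-cycle genes Pcna and Top2a. Each window is the 150 bases before the start of the gene in RefSeq (GRCm38.p6), 5′ to 3′ on the strand of the gene. Capitals mark 4 motifs searched on both strands: the octamer ATTTGCAT, known to be bound by Oct factors; the box CCAAT, bound by NF-Y; the TATA box, read here as TATAAA; and the AC box of H1 promoters, read here as AAACACA.
Hist1h1e, chr13:23622559-23622708 on the minus strand:
Hist1h1e: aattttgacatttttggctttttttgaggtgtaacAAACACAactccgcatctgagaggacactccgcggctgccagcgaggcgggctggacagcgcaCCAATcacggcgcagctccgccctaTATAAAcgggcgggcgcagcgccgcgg
Hist1h1c, chr13:23738657-23738806 on the plus strand:
Hist1h1c: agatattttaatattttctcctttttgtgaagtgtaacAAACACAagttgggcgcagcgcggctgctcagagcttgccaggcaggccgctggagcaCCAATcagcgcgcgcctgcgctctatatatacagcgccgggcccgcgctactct
Hist1h2ae, chr13:23571221-23571370 on the minus strand:
Hist1h2ae: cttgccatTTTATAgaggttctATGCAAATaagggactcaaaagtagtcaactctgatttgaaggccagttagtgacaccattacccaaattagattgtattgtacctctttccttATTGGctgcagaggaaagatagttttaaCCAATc
Hist3h2a, chr11:58954535-58954684 on the plus strand:
Hist3h2a: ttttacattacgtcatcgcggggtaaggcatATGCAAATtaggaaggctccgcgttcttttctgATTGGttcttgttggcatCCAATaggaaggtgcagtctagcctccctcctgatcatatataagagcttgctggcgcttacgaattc
Hist1h3c, chr13:23745522-23745671 on the minus strand:
Hist1h3c: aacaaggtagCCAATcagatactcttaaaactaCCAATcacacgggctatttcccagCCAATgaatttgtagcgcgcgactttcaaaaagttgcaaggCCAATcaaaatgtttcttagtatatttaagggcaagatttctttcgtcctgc
Hist1h4d, chr13:23581418-23581567 on the plus strand:
Hist1h4d: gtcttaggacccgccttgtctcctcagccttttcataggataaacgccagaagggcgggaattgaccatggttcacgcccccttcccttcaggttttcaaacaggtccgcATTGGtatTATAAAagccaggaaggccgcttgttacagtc

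RefSeq windows were matched for 31 of the 36 members; Hist1h2bc, Hist1h3f, Hist1h3a, Hist2h2be and Hist2h4 had none. The octamer was found for 8 of the 31 members, against 0.998% of 32851 promoter windows of the same length. Hist1h2be had 2 windows, of which 1 holds the octamer, and it was counted as a match. The matches of Hist1h2ae and Hist1h2bg are the same site in overlapping windows. All 8 belonged to H2A genes (4 of 9) and H2B genes (4 of 6). The AC box was found in all 4 of the 4 H1 windows and in Hist1h2ab, against 3.53% of all promoters. CCAAT was found for 26 of the 31 members (24.5% of all promoters) and TATAAA for 12 (7.57%). A match describes these letters only.

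Before the results, 1 property of the files has to be given. The RNA matrix held 2 sets of barcodes, and 7734 of the 7740 barcodes of the second set (99.9%) had the same 16 bases as a barcode of the first. The UMI totals of such pairs correlated with r = 0.996, with a median of 0.699 UMIs in the second set for each in the first, so most cells were listed 2 times. Whether the second set holds further reads of the same RNA molecules or a separate library of them was not given in the sources used here, so its counts are not taken as independent of the first. The hashtag matrix listed barcodes of the first set only, and 4017 of 8221 of these (48.9%) were not in it. The comparisons between hosts and sites therefore rest on the first set alone. Results over all 9644 filtered barcodes (27324878 UMIs) count many cells 2 times, their intervals are too narrow for that reason, and values from the first set (6008 barcodes) are given beside the ratios between cycle classes. No doublet caller was run beyond the rule that the largest hashtag count be at least 2 times the second.

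By that rule 1227 cells were WT lung (3865546 UMIs), 1520 Prf1-/- lung (4726709) and 385 Prf1-/- bone (1299480), with medians of 2826 to 3107 UMIs per cell. The level of 3 UMIs, used as the floor for a gene with 0 UMIs, was 0.776, 0.635 and 2.31 CPM in these groups. All 9 melanoma markers (Pmel, Dct, Mlana and others) were detected in each group, summing to 14469, 14713 and 11164 CPM. Markers of T and NK cells and Ptprc (CD45) had 0 UMIs in all groups. Markers of alveolar and airway epithelium summed to 205 CPM in WT lung, where 1 cell held 325 of the 791 UMIs, and to 13.5 and 19.2 CPM in the others.

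The 36 members had 20383 UMIs together, and few genes gave most of them. Hist1h1e and Hist1h2bc held 35.4% of these UMIs and the 7 members with at least 1000 UMIs held 77.0%, while 18 members had fewer than 100. By class, 4 H1 genes gave 30.1% of the UMIs, 9 H2A genes 23.3%, 8 H2B genes 23.3%, 7 H3 genes 8.79% and 8 H4 genes 14.5%. The core histones, which a nucleosome holds in equal numbers, were unequal in these 3' counts, which are not scaled to length. H3 was lowest at 65.5 CPM over the filtered barcodes, and H2A and H2B were highest, both at 174 CPM. Copies within a class have near-identical coding sequence, so the split of reads between them is uncertain.

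Of the linker histones, Hist1h1e (chr13:23621777-23622558) had 3737 UMIs, Hist1h1c (chr13:23738807-23739531) 1680, Hist1h1d 598 and Hist1h1t 126. The first 3 are H1 subtypes of somatic cells, and Hist1h1t is the H1 of spermatocytes. Hist1h1a had 6 UMIs and Hist1h1b, another somatic H1 subtype, had 0 in the filtered barcodes. Of the H2A genes, Hist2h2ac had 1815 UMIs, Hist1h2ae 1580, Hist3h2a 675 and Hist1h2ab 395, and the other 5 had 17 to 93. Of the H2B genes, Hist1h2bc (chr13:23684199-23692480) had 3477, Hist2h2bb 591, Hist1h2be 348 and Hist1h2bh 86, and the other 4 had 39 to 80. Most members span under 1000 bases in RefSeq, but Hist1h2bc spans 8282, Hist1h2be 37455 and Hist2h2be 2667, so their annotated transcripts reach beyond a single short exon. Of the H3 genes, Hist1h3c had 1147 UMIs, Hist1h3e 438, Hist1h3f 109 and Hist1h3a 48, and of the H4 genes Hist1h4d had 2250, Hist1h4i 352, Hist1h4h 120 and Hist1h4c 102. The other 3 H3 genes had 13 to 18 UMIs and the other 4 H4 genes 18 to 61.

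The counts were uneven along chromosome 13, where the Hist1h genes stand. A run of 18 successive Hist1h symbols, from Hist1h2bl to Hist1h2br (chr13:21715711-21837530, 121820 bases), had 1 UMI in all, from Hist1h2an. The run holds 1 H1, 5 H2A, 6 H2B, 2 H3 and 4 H4 symbols. Over all 15961 barcodes it had 17 UMIs, 14 of them from Hist1h1b. The other 36 Hist1h symbols had 17053 UMIs, 31 of them had at least 1 UMI and 27 were members. The genes that flank the run were detected, Zkscan8 with 123 UMIs and Zfp184 with 71. Why the run had almost no counts was not tested.

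**Figure D1:**
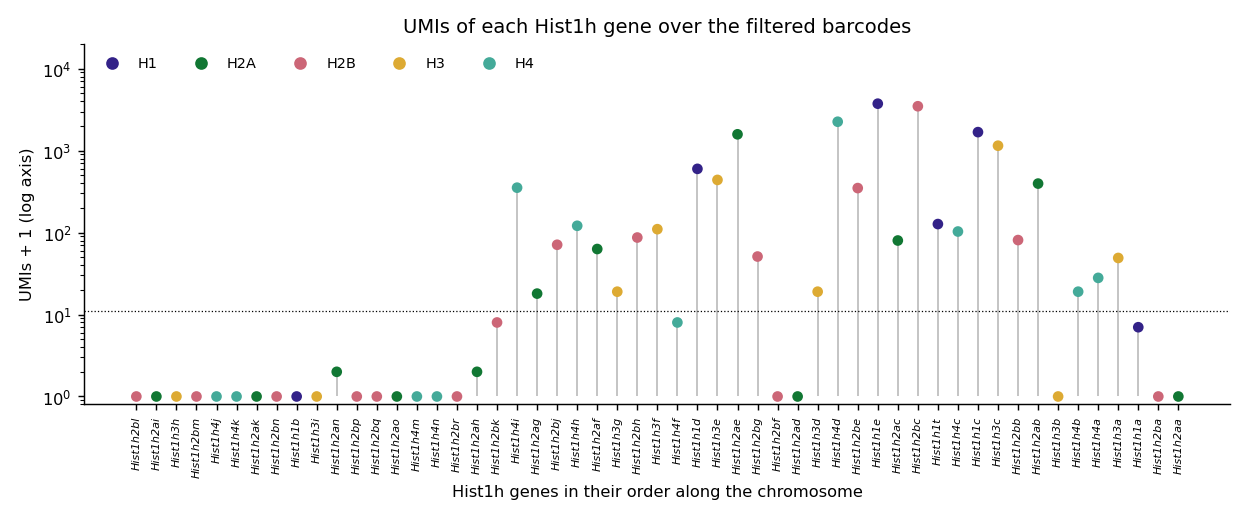
UMIs plus 1 over the filtered barcodes (log axis) for the 53 Hist1h genes with a RefSeq position, in their order along the chromosome and coloured by class; the dotted line is the limit of 10 UMIs. The genes on the left, from Hist1h2bl to Hist1h2br, sit at 0 or 1 UMI, while Hist1h1e with 3737 and Hist1h2bc with 3477 stand highest on the right.

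Head-to-head gene pairs showed that closely spaced starts did not give equal counts. Of 9 pairs of an H2A and an H2B gene that start within 400 bases of each other on opposite strands, 2 had both genes among the members. Hist1h2ae had 1580 UMIs and its partner Hist1h2bg, 180 bases away, had 50, a 31.6-fold difference. Hist1h2ag had 17 and Hist1h2bj, 249 bases away, had 70. The windows overlap within each pair. The octamer stood in the windows of both genes of the first pair, at the same site, and of neither gene of the second.

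The members were then set against Pcna, the sliding clamp of DNA replication, and Top2a, a topoisomerase that is high from S phase to mitosis. Each cell was thinned to 1500 UMIs and classed by whether a Pcna or a Top2a UMI remained; 7 barcodes were too shallow. Neither was seen in 6837 barcodes (70.9%), Pcna only in 1082, both in 458 and Top2a only in 1260. The classes are ranges and not cell types, since 972 of the Pcna-only and 875 of the Top2a-only barcodes rested on 1 UMI. Levels were computed from the full counts, and median UMIs per barcode were 2473, 2703, 3068 and 2950 in that order.

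The summed level of the members was 530.0 CPM in cells with neither transcript, 722 in cells with Pcna only, 1713 in cells with both and 1403 in cells with Top2a only. Against cells with neither, these were 1.36-fold (1.30 to 1.42), 3.23-fold (3.09 to 3.38) and 2.65-fold (2.56 to 2.74), and in the first barcode set 1.30-, 3.04- and 2.62-fold. The level was thus higher in every class with a Pcna or Top2a UMI, and higher with Top2a than with Pcna alone. After thinning, 45.3% of cells with neither held at least 1 member UMI (44.1 to 46.4), against 48.0%, 77.5% and 66.5% in the other classes. In 59 barcodes with at least 10 UMIs of 7 alveolar genes, chosen after their values were seen, 20.3% held a member UMI (11.0 to 32.8). Their median depth was 565 UMIs and they were not thinned, so this share cannot serve as a background for the others. By level, Hist1h1e was at 136 CPM in these barcodes (49.8 to 295), from 6 UMIs, against 137 over the filtered barcodes. Hist1h2bc was at 67.9 CPM (14.0 to 198) against 127, and Hist1h1c at 67.9 (14.0 to 198) against 61.5, each from 3 UMIs. Each interval holds the value of the filtered barcodes, so a lower level was not shown for these genes. Markers of alveolar and airway epithelium summed to 229 CPM in cells with both transcripts and 41.2 CPM in cells with neither, and markers of fibroblasts to 106 CPM in Pcna-only cells and 21.4 in cells with neither; their part in the result was not tested. Without barcodes rich in another cell type the ratio with both transcripts was 3.23-fold (3.09 to 3.37).

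The classes of histone did not move alike. In cells with both transcripts, H3 was 7.45-fold its level in cells with neither (6.50 to 8.53), H2A 4.83-fold (4.43 to 5.27), H4 3.77-fold (3.36 to 4.23) and H1 3.71-fold (3.43 to 4.01). H2B was at 0.957-fold (0.839 to 1.09), with 177 CPM in cells with neither and 169 CPM in cells with both. In the first barcode set the 5 ratios were 8.32 for H3, 4.27 for H2A, 3.72 for H4, 3.68 for H1 and 0.855 for H2B.

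Of the 36 members, 26 were called higher in cells with both transcripts and 2 lower, against 5.73% called higher and 3.66% called lower of 12785 features. In the first set alone 21 were higher and 2 lower (background 5.84% and 3.38%). The median ratio over the members was 4.41, and 5.6 over the 18 with at least 100 UMIs, against 0.963 over all features. In Pcna-only cells 13 members were higher and 1 lower (background 2.36% and 1.71%), and in Top2a-only cells 25 were higher and 1 lower (background 4.77% and 2.25%). In the first set these counts were 12 and 1 (background 2.46% and 1.88%), and 24 and 1 (background 5.11% and 2.19%).

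Among members with at least 50 UMIs the highest ratios in cells with both transcripts, over all filtered barcodes, were those of Hist1h3c, Hist1h1t and Hist1h2ae. Hist1h3c, a gene of the replication-linked H3, stood at 17.7 CPM in cells with neither, 40.7 with Pcna only, 154 with both and 113 with Top2a only, a ratio of 8.67 (7.29 to 10.3) for both over neither, and 9.16 in the first set. Hist1h2ae went through 24.6, 68.0, 209 and 147 CPM in the same order, a ratio of 8.51 (7.34 to 9.84), and 7.67 in the first set. Hist1h1t, at low counts, went through 2.10, 5.59, 18.0 and 10.5 CPM, a ratio of 8.57 (5.05 to 14.4), and 11.8 in the first set (5.82 to 23.8). All 3 were higher in each class with a Pcna or Top2a UMI, with the highest value where both were seen. In the first set the order was different, with Hist1h1t, Hist1h3e (9.17, 6.47 to 12.9) and Hist1h3c highest; these intervals overlap, so no order among them is given.

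Hist1h1e, the H1 gene with most UMIs, stood at 81.6, 139, 382 and 298 CPM, a ratio of 4.68 (4.25 to 5.16) for both over neither, and 4.70 in the first set. Hist1h4d stood at 49.4, 73.0, 204 and 197 CPM, a ratio of 4.13 (3.61 to 4.70), and 4.23 in the first set. Hist2h2ac stood at 36.5, 78.9, 188 and 149 CPM, a ratio of 5.16 (4.48 to 5.94), and 5.20 in the first set. Hist1h1d, Hist2h2bb, Hist1h3e and Hist1h2ab had ratios of 7.03, 6.95, 7.0 and 7.82, and in the first set 6.75, 7.37, 9.17 and 6.86. Within H4, Hist1h4i (2.12, 1.44 to 3.05) and Hist1h4h (2.52, 1.23 to 4.73) were nearer to 1 than Hist1h4c (6.19, 3.24 to 11.4). First-set values were 1.96, 1.33 and 5.01, and Hist1h4h was not called (0.345 to 3.65).

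3 genes stood at the other end. Hist1h2bc was at 152 CPM in cells with neither transcript, 96.9 with Pcna only, 47.3 with both and 67.5 with Top2a only. It was thus lower in every class with a Pcna or Top2a UMI, at 0.311-fold (0.242 to 0.394) for both over neither. Hist3h2a was at 27.6, 20.2, 13.3 and 19.0 CPM, a ratio of 0.482 (0.292 to 0.752). Hist1h1c was at 57.6, 51.3, 87.2 and 78.2 CPM, a ratio of 1.52 (1.25 to 1.82), which just passed 1.5-fold. In the first set alone the 3 ratios were 0.266, 0.394 and 1.55. Among cells with at least 2000 genes the ratio of Hist3h2a was 1.13 (0.388 to 2.74), on the other side of 1.

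Hist1h2bc alone set the value of its class. It held 3477 of the 4741 H2B UMIs, while the next H2B gene, Hist2h2bb, was at 9.68 CPM in cells with neither and 67.3 in cells with both, a ratio of 6.95 (5.39 to 8.91), and 7.37 in the first set. Of the 8 H2B members, 6 were called higher in cells with both (5.73% of all features) and Hist1h2bc was called lower (3.66%). Hist2h2be, with 39 UMIs, had a ratio of 0.952 (0.110 to 3.8). In the first set Hist1h2bb (2.65, 0.662 to 7.86) and Hist1h2bg (5.22, 0.892 to 21.7) were not called.

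The windows printed above share some motifs and differ in others. Hist3h2a and Hist1h2ae both hold the octamer and CCAAT, and their ratios for both transcripts over neither were 0.482 and 8.51. Hist1h1c and Hist1h1e both hold the AC box and CCAAT, with ratios of 1.52 and 4.68. In both pairs TATAAA stands only in the window of the gene with the higher ratio, Hist1h1e and, on the other strand, Hist1h2ae. The match of Hist1h2ae is the same site as the TATAAA in the overlapping window of Hist1h2bg, on whose strand it reads. Other spellings, such as tatata in the windows of Hist1h1c and Hist3h2a, were not searched, so these windows cannot be said to lack a TATA box. The pairs were chosen for their unequal ratios. Over the 24 members with a window and at least 50 UMIs the median ratio was 4.92 for the 10 with TATAAA (2.12 to 8.51) and 6.97 for the 14 without it (0.482 to 8.67), so the ranges overlap and the median was lower with it. Hist1h2bc had no window to read.

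**Figure D2:**
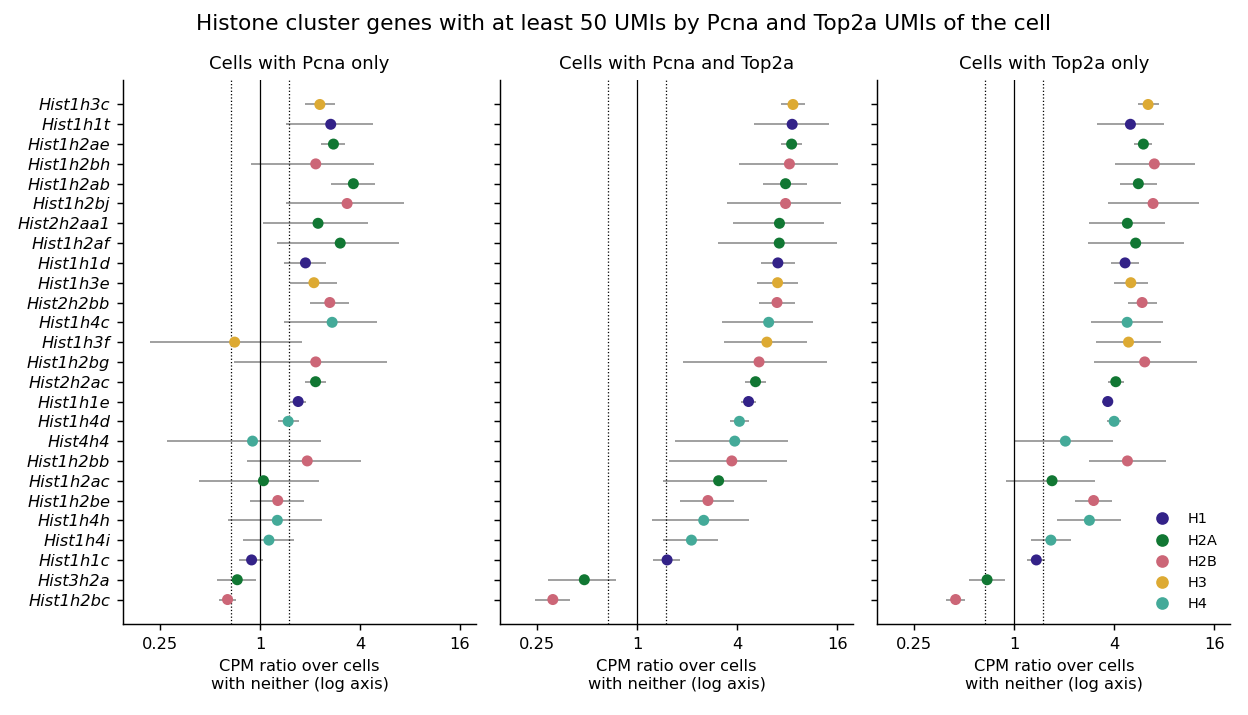
Ratio of the level in cells with Pcna only, with both and with Top2a only over the level in cells with neither (log axes) for the 26 members with at least 50 UMIs, coloured by class; bars are 95% counting intervals, the solid line is 1 and dotted lines mark 1.5-fold either way. Most members lie to the right of 1.5-fold in the middle and right panels, while Hist1h2bc at 0.311 and Hist3h2a at 0.482 lie to the left in the middle panel.

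The same order was seen when cells were split by the number of Top2a UMIs among 1500. The summed level was 558 CPM in 7919 barcodes with 0 Top2a UMIs, 1284 with 1, 1794 with 2 and 2201 with 3 to 4. Hist1h1e stood in these steps at 90.0, 276, 396 and 466 CPM, while Hist1h2bc was at 144, 71.9, 39.6 and 48.6 CPM and at 0 UMIs in the 14 barcodes with at least 5. In the first set the summed steps were 559, 1256, 1838 and 2081 CPM, those of Hist1h1e 88.6, 259, 409 and 459, and those of Hist1h2bc 155, 73.7, 30.6 and 47.2. With at least 5 Top2a UMIs the summed level was 2147 CPM (1733 to 2630), and 2613 in the first set. Hist1h1c was at 56.6, 68.9, 84.1 and 150 CPM, and in the first set at 57.7, 70.2, 96.0 and 155, so it was above its starting level with more Top2a, although less than Hist1h1e. By Pcna UMIs the steps were smaller, with a summed level of 685 CPM at 0, 983 at 1 and 1386 at 2, and in the first set 673, 914 and 1370. It was not higher again in the 23 barcodes with at least 3 Pcna UMIs, at 1276 CPM (1036 to 1555), and 1298 in the first set. Over single cells the relation was loose: across 6005 cells of the first set, thinned to 1500 UMIs, the summed members correlated with Top2a at Pearson r = 0.311 and Spearman rho = 0.235, and with Pcna at 0.0976 and 0.0618, all from sparse counts of the same libraries.

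**Figure D3:**
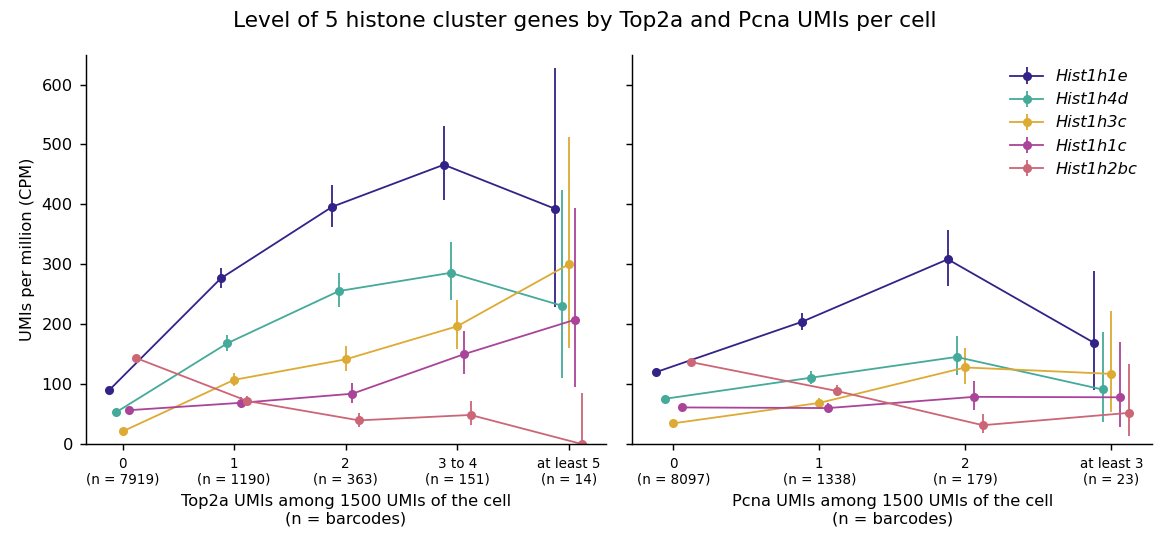
Level of 5 members (CPM, with 95% counting intervals) by the number of Top2a UMIs (left) or Pcna UMIs (right) among 1500 UMIs of each cell; n is the number of barcodes. Hist1h1e, Hist1h4d and Hist1h3c stand higher with 1 to 4 Top2a UMIs than with 0, Hist1h2bc lower, and the last bins, of 14 and 23 barcodes, have wide intervals.

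The pattern held in each source, taken one by one. In cells with any Top2a UMI against cells with neither transcript, Hist1h3c was 8.77-fold (5.88 to 13.3) in the wild-type lung, 9.85-fold (6.84 to 14.4) in the lung without host perforin and 4.61-fold (2.58 to 8.35) in bone. Hist1h1e was 4.69-fold (3.89 to 5.66), 4.26-fold (3.54 to 5.14) and 3.32-fold (2.34 to 4.71) in the same order. Hist1h2bc was 0.246-fold (0.169 to 0.346), 0.367-fold (0.275 to 0.481) and 0.730-fold (0.443 to 1.16), so it was below 1 in all 3, with an interval that reaches 1 in bone.

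The first comparison sets the tumour cells of perforin-deficient lungs beside those of wild-type lungs. With 1 hashtag group each and no replicate, a difference is one between these cell pools and cannot be assigned to host perforin. The members summed to 739 CPM in WT lung (712 to 766) and 702 CPM in Prf1-/- lung (678 to 726), a ratio of 0.95 (0.904 to 0.999). No member was called higher (background 1.11% of features) and 1 was called lower (background 1.63%). That gene, Hist1h3a, had 11 UMIs in WT lung and 3 in Prf1-/- lung, a ratio of 0.223 (0.0400 to 0.844), and it was not called in the second listing (0.234, 0.0237 to 1.23) or under several other settings. In the second listing Hist1h2bh was called lower instead, with 9 and 2 UMIs. The 5 class ratios lay between 0.911 for H4 and 0.970 for H2A. Hist1h2bc was at 156 and 151 CPM, Hist1h1c at 61.8 and 69.6, Hist1h1e at 135 and 115 and Hist1h4d at 76.3 and 69.8. Each of these 4 genes differed between the lungs by less than 1.5-fold.

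The second comparison sets the bone against the lung in perforin-deficient hosts, and it shares the Prf1-/- lung cells with the first. The members summed to 709 CPM in bone (664 to 756), 1.01-fold the Prf1-/- lung (0.938 to 1.09). Single classes differed more than the sum. H3 was 1.37-fold in bone (1.08 to 1.73), H4 1.22-fold (1.00 to 1.47), H2A 1.08-fold (0.922 to 1.26), H1 0.930-fold (0.806 to 1.07) and H2B 0.832-fold (0.712 to 0.970). The median ratio over the members was 1.21, and over all features 0.963.

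Of the 36 members none was called higher in bone (background 2.42%) and 2 were called lower (background 3.85%). The 2 lower members are a share near that of all features. Hist1h1c was at 61.8 CPM in the wild-type lung, 69.6 in the perforin-deficient lung and 36.2 in bone, the lowest of the 3, and its bone ratio was 0.520 (0.374 to 0.707). The share of cells with a Hist1h1c UMI was 16.1%, 17.4% and 8.57%. Hist3h2a was at 28.2, 28.3 and 15.4 CPM, with 20 UMIs in bone, a ratio of 0.543 (0.321 to 0.872). In the second listing of the same cells, both stayed below 1 but neither was called, at 0.704 (0.489 to 0.992) and 0.710 (0.379 to 1.24). With both listings summed they were called lower, at 0.591 and 0.604, but if the listings share molecules that sum counts them 2 times, so it adds no support to the call. Among cells with at least 2000 genes neither was called, at 0.653 (0.328 to 1.21) and 0.809 (0.235 to 2.26).

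Hist1h2bc was at 156 and 151 CPM in the lungs of wild-type and perforin-deficient hosts and at 104 CPM in bone. Its bone ratio of 0.688 (0.568 to 0.828) did not reach 1.5-fold, and in the second listing it was 0.698 (0.555 to 0.870). Hist1h1c, Hist3h2a and Hist1h2bc, the 3 members whose bone interval lay wholly below 1, also had the 3 lowest ratios in cells with Pcna and Top2a among members with at least 50 UMIs over all filtered barcodes; in the first set Hist1h4h stood below Hist1h1c. Hist1h3c stood the other way, at 36.0, 36.4 and 51.6 CPM, 1.42-fold in bone (1.05 to 1.89), and at 1.59-fold in the second listing, where it was called higher. At a hashtag ratio of at least 4 it was also called higher in bone, at 1.54-fold (1.12 to 2.10). Hist1h4d was at 76.3, 69.8 and 88.5 CPM, 1.27-fold in bone (1.02 to 1.57). Hist2h2bb was at 16.3, 17.3 and 20.8 CPM, 1.20-fold in bone (0.745 to 1.87), but 2.31-fold in the second listing and 1.61-fold in both summed, where it was called higher.

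**Figure D4:**
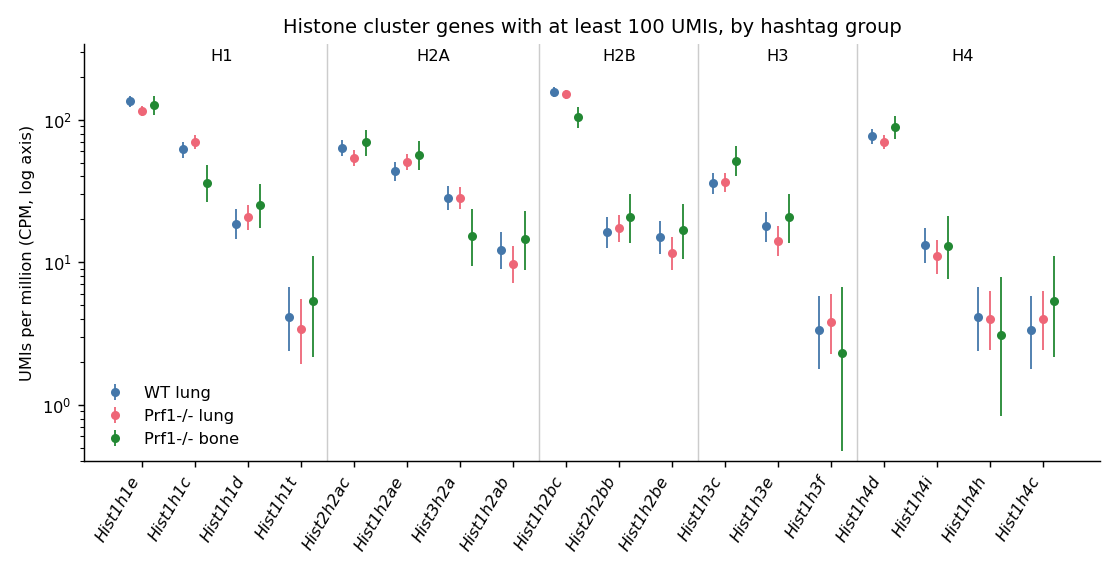
Level in CPM (log axis) of the 18 members with at least 100 UMIs in the 3 sources, grouped by class; bars are exact Poisson 95% intervals. The bone value of Hist1h1c, 36.2 CPM, of Hist3h2a, 15.4, and of Hist1h2bc, 104, lies below both lung values.

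**Figure D5:**
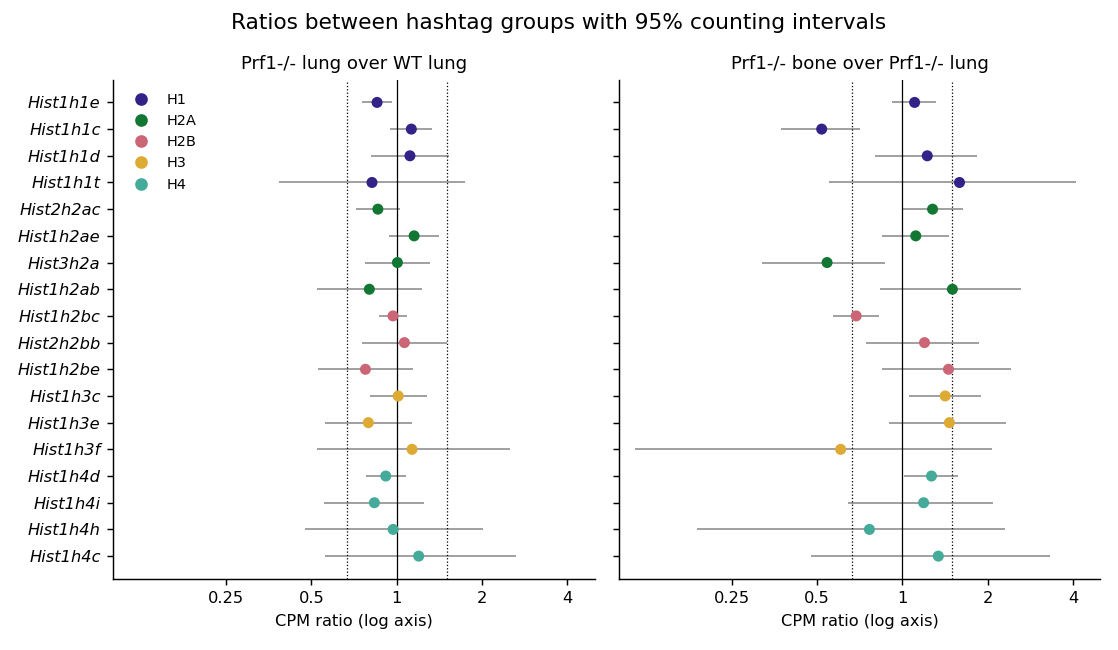
Ratio of levels (log axes) for the same 18 members between the lungs (left) and between bone and lung of perforin-deficient hosts (right), with 95% counting intervals; the solid line is 1 and dotted lines mark 1.5-fold either way. In the left panel all 18 points lie within 1.5-fold, and in the right panel Hist1h1c and Hist3h2a lie below it with intervals that leave out 1.

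The share of cells in the cycle classes was set beside the bone values. Pcna only was seen in 10.9% of WT lung cells, 9.74% of Prf1-/- lung cells (8.30 to 11.3) and 15.3% of bone cells (11.9 to 19.3), and neither in 72.8%, 75.0% and 68.8%. Pcna itself was at 131, 121 and 166 CPM and Top2a at 193, 181 and 205 CPM. Within cells with neither transcript, Hist1h1c was at 0.457-fold in bone (0.283 to 0.705), and within cells with either at 0.559-fold (0.345 to 0.869), so it was lower in bone within each. Hist3h2a was at 0.596-fold (0.322 to 1.03) and 0.448-fold (0.137 to 1.16) in the same order, and was not called within these classes. Hist1h2bc was at 0.696-fold (0.559 to 0.859) and 0.789-fold (0.517 to 1.17). Within cells with neither, H3 was 1.80-fold in bone (1.16 to 2.72) and H4 1.5-fold (1.13 to 1.98). Hist1h1d was 2.68-fold there (1.39 to 5.04), from 18 UMIs in bone and 27 in Prf1-/- lung. Within cells with either, H3 was 1.03-fold, H4 0.898-fold and Hist1h1d 0.625-fold (0.332 to 1.10). Over all cells of the 2 groups Hist1h1d was 1.22-fold in bone (0.799 to 1.83).

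Among the genes that act with histones, few were called between sources and many between cycle classes. The lists were chosen with earlier results known and are described by counts. The shares of all features called were 1.11% higher and 1.63% lower between the lungs, 2.42% higher and 3.85% lower in bone, and 5.73% higher in cells with both transcripts (5.84% in the first set). Of 9 replacement histones measured, most of which are polyadenylated and made throughout the cycle, none was called in either comparison between sources, and 4 were higher in cells with both transcripts, also in the first set. H2afz, the H2A.Z gene, was at 1558, 1484 and 1968 CPM in the 3 sources, and 1.64-fold in cells with both. H2afx was 2.52-fold, H1f0 1.70-fold and Cenpa, the centromeric H3, 1.59-fold. Their first-set ratios were 1.70, 2.53, 1.77 and 1.73. Of the 26 members with at least 50 UMIs, 21 had a ratio above that of H2afx and 5 below it, Hist1h4h, Hist1h4i, Hist1h1c, Hist3h2a and Hist1h2bc. In the first set 19 were above and 7 below. Hist1h4h, also at 2.52, was level with H2afx. The intervals of Hist1h4h (1.23 to 4.73) and Hist1h4i (1.44 to 3.05) hold the H2afx value. So do those of some members above it, such as Hist1h2be (1.81 to 3.84).

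Of 33 genes for histone gene transcription and mRNA processing, 2 were higher in Prf1-/- lung than in WT lung (Cstf2 and Hinfp), 2 were lower in bone (Eri1 and Hinfp), and 8 were higher in cells with both transcripts (11 in the first set). The 2 genes lower in bone are a share near that of all features. Slbp, which binds the stem-loop, was at 64.2, 66.0 and 53.1 CPM in the 3 sources and 2.02-fold in cells with both (1.72 to 2.38), and 2.07-fold in the first set. Eri1, an exonuclease that trims the stem-loop end, was at 46.6, 41.7 and 26.9 CPM, 0.646-fold in bone (0.438 to 0.929). Hinfp, an activator of H4 genes, was at 3.88, 7.40 and 1.54 CPM, the last from 2 UMIs, a bone ratio of 0.208 (0.0242 to 0.809).

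Of 22 histone chaperones, none was called between sources and 11 were higher in cells with both transcripts (13 in the first set), among them Asf1b (3.47-fold, 3.70 in the first set) and Chaf1a, a subunit of the assembly factor CAF-1 (2.70-fold, 3.28 in the first set). Nasp, which carries H3 and H4, was at 174, 164 and 229 CPM, 1.39-fold in bone (1.21 to 1.59), short of 1.5-fold. Of 25 S-phase genes, 4 were higher in bone, Cdt1 at 2.22-fold, Ung at 1.67-fold, Uhrf1 at 1.53-fold and Hells at 1.52-fold, and all 25 were higher in cells with both transcripts, also in the first set. Of 21 genes of G2 and M phase, none was called between sources and 19 were higher in cells with both, also 19 in the first set. In Top2a-only cells the median ratio over cells with neither was 3.27 for the G2 and M genes and 1.99 for the S-phase genes. In Pcna-only cells these medians were 1.42 and 1.73.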

How the data were processed

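The values are UMI counts per gene and barcode and per hashtag and barcode, as the authors deposited them in a matrix of 10x 3' v3 RNA and a matrix of TotalSeq-B hashtags. They were made with Cell Ranger, version 6.1.2 per the submitters' processing notes, which also name mm10 and Seurat 4.3.0, and version 6.0.0 per the file headers. Per the labels, the depth aimed at was no fewer than 50000 RNA and 5000 hashtag reads per cell.

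Barcodes with at least 1000 genes and at most 15% mitochondrial UMIs were kept, and a cell joined a hashtag group where its largest hashtag count was at least 2 times the second. Counts were summed per group or cycle class and divided by all UMIs of those cells (CPM). Levels have exact Poisson intervals, ratios exact conditional binomial intervals and shares Clopper-Pearson intervals, all at 95% and for counting error only; cells are not replicates, so no p-value was made. The background of each count is the share called of the 12785 features with at least 10 UMIs. Cells were thinned to 1500 UMIs with a fixed seed before they were classed by Pcna and Top2a. The 3 sources shared 1 pooled run, so there was no batch to separate between them. Whether the 2 barcode sets are separate libraries was not given, and no correction was made for them. In the same WT lung cells Hist1h2ae was at 43.7 CPM in the first set and 63.0 in the second.

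Named are the 4 members with most UMIs in each class, each member called between sources, the 3 highest and 3 lowest ratios in cells with Pcna and Top2a, and those next to the limit of 10 UMIs; of the other lists, genes were named by their calls or their role. The members and lists were chosen with earlier results of these data known. Positions and promoter windows come from RefSeq GRCm38.p6, which matched 66 of the 67 symbols. The scripts were tested on simulated counts. Python 3.11.15, numpy 2.4.6, scipy 1.17.1 and pandas 2.3.3 were used.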

Additional observations from a re-analysis of the deposited data

Results flagged for a closer look

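Hist1h1b, which had 0 UMIs in the filtered barcodes, had 14 UMIs in 5 barcodes that did not pass the cell filter, which the comparisons do not use. By their bases these are 3 cells, 2 of them listed in both barcode sets. The first had 909 UMIs in the first set, 1 of them from a melanoma marker, and hashtag counts of 464 for bone against 92 for the next. The second had 1053 UMIs, 10 of them from melanoma markers and 91 from erythroid markers, and no hashtag counts. The third had 271 UMIs and none from melanoma markers. What these cells are was not tested.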

How the results depend on the processing

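No paired analysis was possible because each source is 1 hashtag group with no replicate, so no sample could be left out or paired either. Of the summed ratios and counts, 62 values lay close to those reported and 23 moved. A ratio was taken as close if it lay inside the reported interval, and a count if it was within 1.5-fold of the reported count. Neither rule asked for the same direction or the same genes. Between the lungs, the summed ratio was 0.864 with at least 2000 genes, 0.883 within cells with neither transcript and 1.06 within cells with either. The lung count of 1 became 0 with at least 2000 genes, without the 5% of cells with most UMIs, at a hashtag ratio of 1.5, within either kind of cell, and from counts thinned to 1500 UMIs; in the second barcode set it was 1 for another gene, Hist1h2bh.

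Between bone and lung, the summed ratio was 1.29 with at least 2000 genes and 0.881 within cells with Pcna or Top2a. The bone count of 2 became 4 with at least 2000 genes (Hist2h2ac, Hist1h4d, Hist1h3c and Hist1h2bj, all higher), 4 within cells with neither (Hist1h1c lower, Hist1h1d, Hist1h4d and Hist1h3c higher) and 1 within cells with either (Hist1h1c). It was 3 at a hashtag ratio of at least 4 (Hist1h3c higher beside the 2), 3 in the second barcode set (Hist2h2bb, Hist1h2bh and Hist1h3c, all higher) and 3 in both sets summed (Hist2h2bb higher beside the 2). Thinned to 1500 UMIs it stayed at 2, but for Hist1h1c lower and Hist1h2ae higher.

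The Pcna-only ratio was 1.68 with at least 2000 genes, 1.30 without the 5% of cells with most UMIs, 1.28 from thinned counts, 1.23 with classes thinned to 2500 UMIs and 1.30 in the first barcode set. The ratio with both transcripts was 3.48 with classes thinned to 2500 UMIs and 3.04 in the first set. The Top2a-only ratio was 2.39 with at least 2000 genes, 2.53 over hashtag groups only and 2.89 with classes thinned to 2500 UMIs. Of single genes and classes 710 values stayed, 107 moved and 1 reversed, Hist3h2a in cells with both transcripts at 1.13 with at least 2000 genes. A value was counted as reversed only where the reported ratio was called and the new one lay on the other side of 1. Ratios that were not called also crossed 1. Examples are H4 in bone, reported at 1.22 and as low as 0.898, and Hist1h2ae between the lungs, reported at 1.15 and as low as 0.761. The causes were not tested. The settings of the second barcode set, both sets, the first set alone and leaving out barcodes of other cell types were chosen after seeing the data. Depth limits the members with few UMIs: in bone 3 UMIs, the floor used for a gene at 0, are 2.31 CPM.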

Other observations

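The barcodes left out by the cell filter, 6317 with 7826017 UMIs and a median of 1305 UMIs, had the members in other proportions. Hist1h2bc was at 236 CPM there and 127 in the filtered barcodes, and Hist1h1c at 82.2 and 61.5. Hist1h1e was at 75.4 CPM there and 137 in the filtered barcodes. Hist1h2bc, which had the lowest ratio in cells with Pcna and Top2a among members with at least 50 UMIs, was thus higher outside the filter, and Hist1h1e was lower. No group or cycle class was made of these barcodes.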
